A study of Mus musculus with 4 samples.

Results

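Platelet-derived growth factor receptors and the stem cell factor receptor Kit were followed with their relatives and ligands in mouse extraembryonic endoderm (XEN) and embryonic stem (ES) cells. The set held 7 genes, taken as every probe set annotated to exactly 1 of their symbols. These were 9 of the 12488 probe sets on the array, for 5 receptor genes (Pdgfra, Pdgfrb, Kit, Kdr and Met) and 2 ligand genes (Pdgfa and Kitl). Only Pdgfra had several probe sets, 3 in number, and 0 probe sets carried a member's symbol together with another.

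XEN cells are permanent lines of the primitive endoderm lineage, which lines the yolk sacs, and ES cells are pluripotent lines of the lineage that forms the embryo itself. Total RNA was measured on 4 Affymetrix MG_U74Av2 arrays, 3 of XEN and 1 of ES. The XEN arrays were IM8A1-I (line IM8A1, PO strain, passage 27, gelatin, 70% EMFI-CM), IM8A1-II (same line and passage, kept for 4 days in RPMI 1640 with 20% FBS, on tissue culture plastic) and XEN1-3 (ICR strain, passage 18, gelatin, 70% EMFI-CM). The ES array was of undifferentiated R1 cells on gelatin with LIF. The 3 XEN arrays thus stand for 2 lines. P-values reflect the scatter of these 3 cultures alone, with the lone ES culture taken to scatter likewise. No label states a transgene, a knockout or a drug.

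The receptors are single-pass membrane proteins with a tyrosine kinase inside the cell, which pair up and phosphorylate each other when a ligand binds outside. PDGF-A, the product of Pdgfa, binds the alpha receptor, and stem cell factor, the product of Kitl, binds Kit. Kdr is the main receptor for vascular endothelial growth factor (VEGF) and Met that for hepatocyte growth factor. Pdgfra is widely used as a marker of primitive endoderm, and Kit is known for its part in germ cells, blood stem cells and mast cells, and pigment cells.

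Signal is given in arbitrary units on a linear scale. Values under 27.3 units, the 40th percentile of all values, are described as under the background limit, which is not a detection call. Levels of different probe sets were not set against each other, since probes differ in brightness, except in the summed signals of marker lists. Bright probe sets weigh most in these sums. The labels were checked against markers, each through its probe set with the highest mean log2 signal. By these, 5 of 5 ES markers on the array (Pou5f1, Sox2, Nanog, Zfp42 and Utf1) reached the limit in ES and 0 in any XEN array. Of 7 extraembryonic endoderm markers 7 reached it in XEN. In ES 3 of these 7 also reached it, Gata4 at 40.9 units, Lama1 at 142 and Sparc at 386, each lower than on any XEN array. The 3 XEN arrays came from 1 chip lot and day and the ES array from another, so that lot, day and cell type cannot be told apart. The run record of XEN1-3 carried a message that fluid was not detected. Across 8582 tested probe sets the log2 signals of XEN1-3 correlated with those of IM8A1-I at r = 0.930, IM8A1-II with IM8A1-I at 0.954, and XEN1-3, IM8A1-II and IM8A1-I with ES at 0.784, 0.775 and 0.773. Such a correlation runs across genes and not across replicates.

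The sequence upstream of the 3 genes that passed the test in XEN against ES (Pdgfra, Kit and Pdgfa) is shown because these promoters differ in base composition. Each is the 250 bases before an annotated start in RefSeq, build GRCm38.p6, written 5′ to 3′ on the gene's own strand. The windows are chr5:75152001-75152250 (plus strand) for Pdgfra, chr5:75574737-75574986 (plus strand) for the first of 2 listed starts of Kit, and chr5:138994945-138995194 (minus strand) for the outer of 2 listed starts of Pdgfa. Capitals mark the GC box, GGGCGG on either strand.
Pdgfra: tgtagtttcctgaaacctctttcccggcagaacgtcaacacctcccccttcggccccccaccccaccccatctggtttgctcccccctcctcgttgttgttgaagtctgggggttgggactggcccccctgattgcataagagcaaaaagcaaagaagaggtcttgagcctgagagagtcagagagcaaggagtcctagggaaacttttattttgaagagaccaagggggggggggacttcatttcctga
Kit: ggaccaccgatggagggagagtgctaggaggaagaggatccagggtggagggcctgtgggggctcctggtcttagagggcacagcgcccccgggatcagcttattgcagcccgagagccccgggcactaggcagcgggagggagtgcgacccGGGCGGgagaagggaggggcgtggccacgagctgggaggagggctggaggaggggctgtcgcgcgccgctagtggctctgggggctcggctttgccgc
Pdgfa: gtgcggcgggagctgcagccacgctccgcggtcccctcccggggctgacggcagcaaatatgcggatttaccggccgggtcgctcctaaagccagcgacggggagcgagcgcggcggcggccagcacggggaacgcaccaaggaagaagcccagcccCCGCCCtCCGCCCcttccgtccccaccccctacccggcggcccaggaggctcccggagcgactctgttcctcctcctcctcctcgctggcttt

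The Pdgfra window held 54.4% G and C and 4 CG dinucleotides, near the medians of 52.4% and 6 over 32841 such windows in RefSeq. The Kit window held 70.8% and 17, and the Pdgfa window 72.4% and 28. The 250 bases before Kitl, Kdr and Met were also rich in G and C, at 69.2%, 61.6% and 74.0%. The GC box was found once in the Kit window, at 98 bases before the start, and 2 times in that of Pdgfa, at 93 and 86 bases, while 32.7% of all windows hold it. Also searched on both strands, without regard to overlap, were the GATA factor core GATAA, held by 22.6% of all windows, and the SOX factor core ACAAT, held by 27.7%. The octamer ATGCAAAT is held by 1.60% of windows and the word TATAAA by 12.4%. None of these was found in the 3 windows printed, which says only that these letters are not in them. The inner start of Pdgfa, not printed, has ACAAT at 133 bases before it. Among the other members, the Kitl window held TATAAA, at 25 bases before the start.

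In XEN against ES, Pdgfra and Kit were higher, Pdgfa was lower, and the other tested members did not pass the test. Of the 9 probe sets 7 reached the background limit on at least 1 array and were tested. Among these 2 were higher and 1 was lower in limma's moderated test at an adjusted p under 0.05, and 4 did not pass. Over all 8582 tested probe sets 5.58% were higher and 5.05% lower by the same rule. The median log2 difference of the 7 was 1.05, against 0.05 over all tested probe sets. It was 0.52 with the 4 that lay under the limit in ES set at their bounds. No median with bounds is given over all probe sets, so 0.52 has no like value beside it. Fewer cells of a type and less RNA per cell cannot be told apart in such bulk samples.

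**Figure D1:**
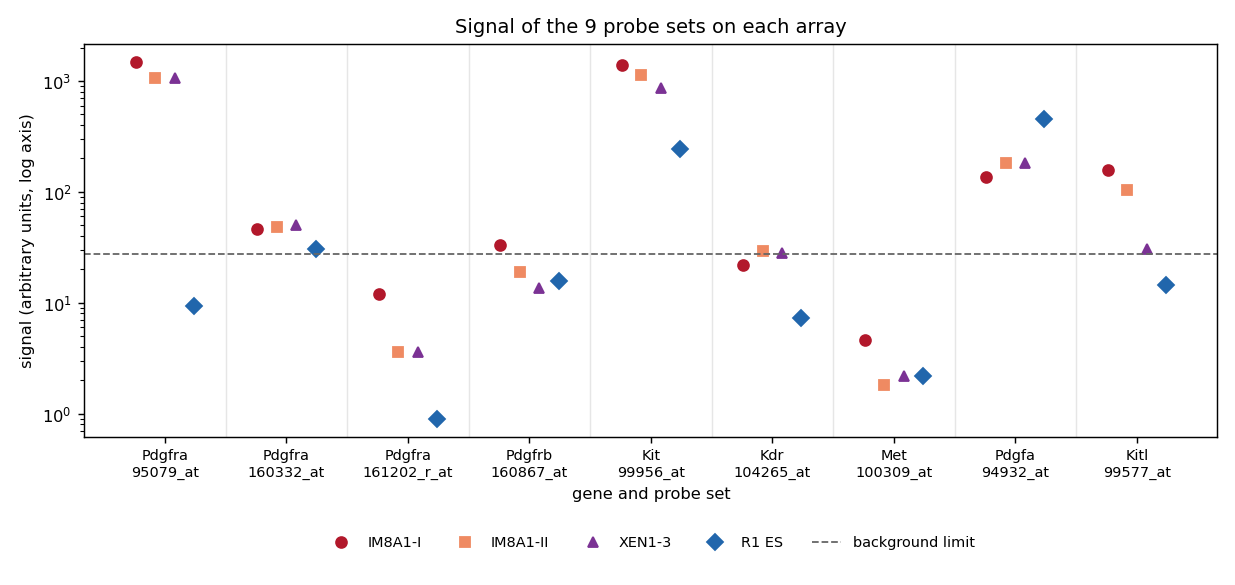
Signal in arbitrary units (log axis) of the 9 probe sets of the 7 genes on the 3 XEN arrays and the ES array, 1 point per array, with the background limit of 27.3 units as a dashed line. For Pdgfra 95079_at and Kit the 3 XEN points lie above the ES point, and for Pdgfa the ES point lies above all 3 XEN points.

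Pdgfra encodes the alpha receptor, which binds PDGF-A, PDGF-B and PDGF-C chains. Its bright probe set 95079_at read 1487 units in IM8A1-I, 1055.5 units in IM8A1-II and 1057 units in XEN1-3, against 9.40 in ES. All 3 XEN arrays were far above the limit and the ES array was under it, so the groups did not overlap. The XEN mean was 1199.8 ± 249 (SD, n = 3), and the transcript was at least 43.4-fold higher in XEN, taking the limit for ES. The fitted log2 difference was 5.91 ± 0.32 (SE, limma adjusted p = 0.00175). It passed under all 11 alternatives, with log2 differences of 4.39 to 6.73.

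The 2 other Pdgfra probe sets were dim. Probe set 160332_at read 46.3, 48.3 and 49.9 units on the IM8A1-I, IM8A1-II and XEN1-3 arrays, against 30.3 in ES. The 3 XEN values lay close together and all above ES, at ratios of 1.53 to 1.65. The log2 difference was 0.52, with a 95% interval of -0.21 to 1.25, and did not pass (limma adjusted p = 0.292). It passed where dim values were set to the limit before log2 (0.0404). Probe set 161202_r_at, at 12.1, 3.60 and 3.60 units in XEN and 0.900 in ES, was under the limit on all arrays and was not tested. The size of the Pdgfra difference thus rests on 1 of its 3 probe sets.

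Pdgfrb encodes the beta receptor, which binds PDGF-B and is typical of pericytes and fibroblasts. Its probe set read 33.0 units in IM8A1-I, 19.1 units in IM8A1-II and 13.6 units in XEN1-3, against 15.8 in ES. Only IM8A1-I reached the limit, and the ES value fell inside the XEN range. The log2 difference of 0.26, with a 95% interval of -0.88 to 1.39, did not pass (limma adjusted p = 0.749). Among 8 feeder fibroblast markers, listed because such cells express Pdgfrb, 4 reached the limit on at least 1 XEN array and 3 in ES. Their summed signal was 557 to 697 units in XEN and 473 in ES. Most of the XEN sum came from a probe set of the collagen gene Col1a2. That probe set read 352, 353 and 403 units on the IM8A1-I, IM8A1-II and XEN1-3 arrays, against 206 in ES. The other Col1a2 probe set was under the limit on all arrays, at 6.0 to 7.9 units in XEN and 22.1 in ES. The collagen gene Col1a1 read 68.0, 95.5 and 73.0 units in XEN, against 153 in ES, without passing (limma adjusted p = 0.121). A further Col1a1 probe set was lower, at 1.7 to 3.1 units in XEN, against 114 in ES (limma adjusted p = 0.0104). Twist2, a mesenchymal transcription factor gene, read 69.3, 39.8 and 151 units in XEN, against 22 in ES. Thy1, a surface glycoprotein gene, was lower in XEN, at 3.00 to 5.80 units, against 48.5 in ES (limma adjusted p = 0.0408), and the collagen gene Col3a1 was under the limit on all 4 arrays. The part of such cells in the Pdgfrb values was not tested.

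Kit, the receptor for stem cell factor, read 1404 units in IM8A1-I, 1121 units in IM8A1-II and 870.5 units in XEN1-3, against 243 in ES. All 4 arrays were above the limit, and the lowest XEN array stood 3.58-fold above ES. The XEN mean was 1132 ± 267 (SD, n = 3) and the log2 difference 2.14 ± 0.34 (SE, limma adjusted p = 0.0205). The call was lost without IM8A1-I (adjusted p = 0.0522), without IM8A1-II (0.0523) and where dim values were set to the limit (0.0684), at log2 differences of 1.98, 2.14 and 2.19. Of 6 blood and mast cell markers, cell types that also express Kit, 3 reached the limit on at least 1 XEN array and 1 in ES. Cma1 and Cpa3 did so on 1 array each, at 27.9 units in IM8A1-II and 31.3 units in XEN1-3. Their summed signal was 87.2 to 135 units in XEN and 81.1 in ES, a sum that included the erythroid and mast cell factor gene Gata1, at 50.4, 64.8 and 62.1 units in XEN and 36.2 in ES. The pan-leukocyte gene Ptprc was under the limit on all arrays, at most 3.30 units in any of its probe sets. The part of such cells in the Kit values was not tested.

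Kdr, known as Flk1 and an early marker of endothelial and blood progenitors, was dim. It read 21.8 units in IM8A1-I, 29.3 units in IM8A1-II and 28.3 units in XEN1-3, against 7.30 in ES. The XEN arrays lay on both sides of the limit and all above ES, which was under it. The log2 difference of 1.05, with a 95% interval of 0.14 to 1.96 before adjustment, did not pass over all probe sets (limma adjusted p = 0.126), nor did it under any of the 11 alternatives, where the adjusted p ran from 0.0818 to 0.589. Met, at 4.60, 1.80 and 2.20 units on the IM8A1-I, IM8A1-II and XEN1-3 arrays and 2.20 in ES, was under the limit everywhere and was not tested.

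Pdgfa, the PDGF-A ligand gene, ran the other way. It read 137 units in IM8A1-I, 183 units in IM8A1-II and 181 units in XEN1-3, against 451 in ES. The groups did not overlap, with each XEN array at 0.304 to 0.406 of the ES level. Pdgfa averaged 167 ± 25.8 units in XEN (SD, n = 3), and the log2 difference was -1.39 ± 0.30 (SE, limma adjusted p = 0.0421). The call lay near the threshold. It was lost without IM8A1-I (adjusted p = 0.105) and without IM8A1-II (0.0863). It was also lost when every line entered as 1 sample (0.0671), when dim probe sets were kept (0.0580) and where dim values were set to the limit (0.0781), while the log2 difference stayed between -1.49 and -1.22 under the 11 alternatives.

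Kitl, which encodes stem cell factor, was uneven among the XEN arrays. It read 159 units in IM8A1-I, 103 units in IM8A1-II and 30.6 units in XEN1-3, against 14.5 in ES. All 3 XEN arrays lay above the limit and the ES array under it, but XEN1-3 was only just above. The XEN mean was 97.5 ± 64.3 (SD, n = 3). The log2 difference of 1.89, with a 95% interval of -0.01 to 3.79, did not pass (limma adjusted p = 0.171). Without XEN1-3, which leaves only the IM8A1 line, it was 2.47 and passed (adjusted p = 0.00652).

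**Figure D2:**
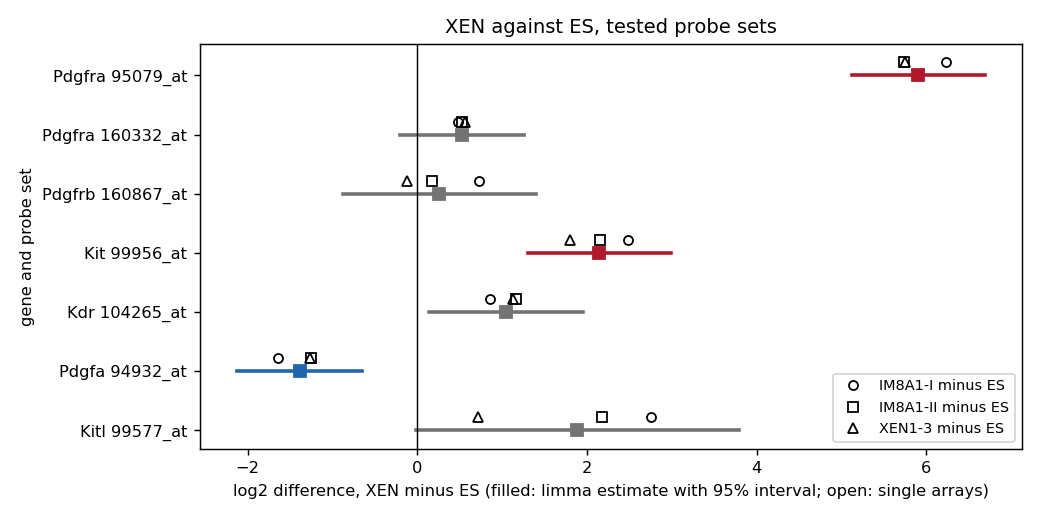
Log2 difference from ES of the 7 tested probe sets, with limma's estimate (filled square) and its 95% interval (line, before adjustment), red for higher and blue for lower at an adjusted p under 0.05 and grey for not past it. Open symbols are the single XEN arrays minus ES. Pdgfra 95079_at stands at 5.91, Kit at 2.14 and Pdgfa at -1.39, and the Kitl arrays spread from 0.72 to 2.76.

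The second question was whether culture condition or line moved these genes within XEN. With 1 array for each, no test was possible, and a difference was counted when it was at least 2-fold on the log2 scale used and at least 1 of the arrays compared reached the limit. Between IM8A1-II and IM8A1-I, the same line in different culture, 0 of the member probe sets were counted, where 3.70% of 7865 probe sets were at least 2-fold higher and 2.57% at least 2-fold lower in IM8A1-II. The bright Pdgfra probe set stood at 0.710, Kit at 0.798, Pdgfa at 1.33 and Kitl at 0.648 of the IM8A1-I signal.

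Between XEN1-3 and IM8A1-I, different lines in the same medium, 1 member was counted as lower and 0 as higher. Over 7918 probe sets 4.67% were at least 2-fold lower and 4.74% at least 2-fold higher in XEN1-3. The member was Kitl, at 30.6 units in XEN1-3 and 159 in IM8A1-I, a ratio of 0.193 and a log2 difference of -2.04. Pdgfra stood at 0.710, Kit at 0.620 and Pdgfa at 1.32 of the IM8A1-I signal. For Kit and Kitl the arrays took the same order, IM8A1-I, IM8A1-II, XEN1-3 and ES from high to low. Neighbouring XEN arrays in the Kit order had no replicate of their own line and culture, so their order was not tested. The part of the fluidics message of XEN1-3 in the Kitl difference was not tested.

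Pdgfra, Kit and Kdr are direct neighbours on mouse chromosome 5, with 0 protein-coding genes between Pdgfra and Kit and 0 between Kit and Kdr in the RefSeq gene order. Pdgfa lies on chromosome 5 too, so that 4 of the 7 genes share it. The protein-coding genes up to 5 places to either side of the trio were set beside it. Of these 10 genes, 5 had a probe set of 1 symbol and 3 were tested. None passed limma's test in either direction, and 0 had an unadjusted p under 0.05, a threshold for which no share over all probe sets is given. Fip1l1, a subunit of the polyadenylation machinery, read 93.0, 99.7 and 91.3 units on the IM8A1-I, IM8A1-II and XEN1-3 arrays, against 130 in ES (log2 difference -0.42, adjusted p = 0.338). On the far side, Tmem165, a Golgi membrane protein gene, read 1091, 1218 and 1642 units in XEN and 892 in ES (0.54, adjusted p = 0.317). The circadian transcription factor gene Clock read 50.6, 56.9 and 60.1 units in XEN and 43.3 in ES (0.30, adjusted p = 0.531). Lnx1, an E3 ubiquitin ligase gene, and Nmu, the neuromedin U gene, were under the limit on all 4 arrays. Lnx1 read 3.70, 4.20 and 5.90 units in XEN and 17.9 in ES, and Nmu 3.10, 19.6 and 11.4 units in XEN and 19.5 in ES.

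**Figure D3:**
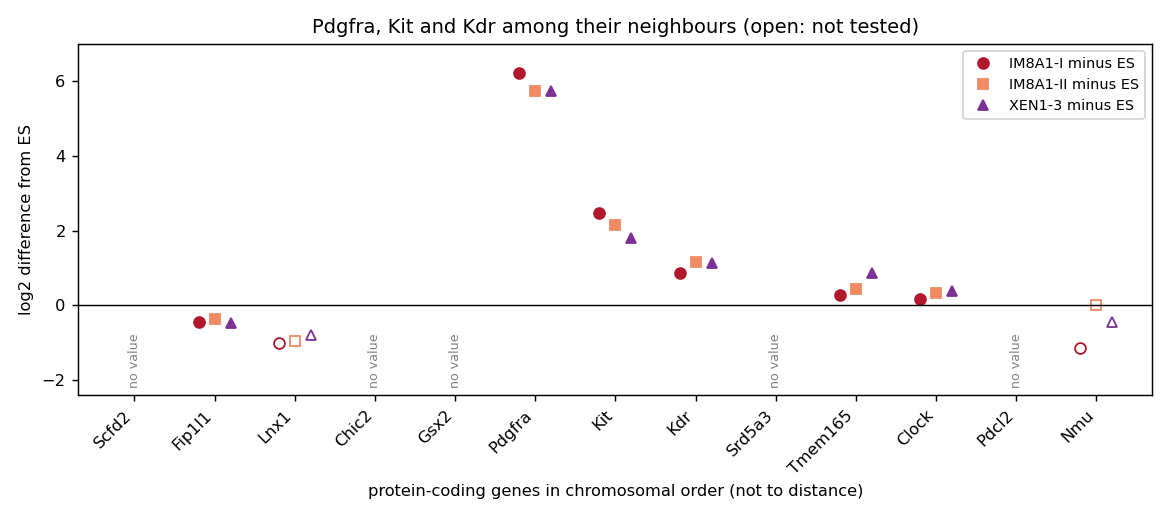
Log2 difference from ES of each XEN array for Pdgfra, Kit and Kdr (representative probe sets) and for 10 protein-coding genes around them, in chromosomal order and not to distance. Open symbols were under the background limit on all arrays, and genes without a probe set of 1 symbol have no value. Pdgfra and Kit stand above the rest, and no array of the 5 neighbours with a value is 2-fold above ES.

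The wider pathways were described from a list of 87 other ligands, receptors and signalling genes, of which 67 had a probe set of 1 symbol and 54 were tested, each through its probe set with the highest mean log2 signal. In limma's test 3 were higher, 2 were lower and 49 did not pass, where 5.58% and 5.05% of all tested probe sets passed in these directions. The median log2 difference was 0.39, against 0.05 over all tested probe sets. It was 0.29 with bounds in place of the 14 genes that lay under the limit throughout ES or XEN. That value too has no like median over all probe sets.

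Among 7 tested receptors and coreceptors 2 were higher and 5 did not pass. Tek, the angiopoietin receptor, read 148 units in IM8A1-I, 129.5 units in IM8A1-II and 158 units in XEN1-3, against 15.0 in ES. It was at least 5.30-fold higher, with a log2 difference of 2.61 ± 0.28 (SE, limma adjusted p = 0.00807). Flt1, the VEGF receptor related to Kdr, read 99.2, 269 and 96.0 units on the IM8A1-I, IM8A1-II and XEN1-3 arrays, against 12.2 in ES. Its log2 difference of 2.71 ± 0.60 was close to the threshold (limma adjusted p = 0.0458). It was lost under 6 of 11 alternatives, among them without IM8A1-I (0.0709) and where dim values were set to the limit (0.202), and its other probe set did not pass (1.66, adjusted p = 0.133). Tek also stood in a list of 5 endothelial markers, of which 3 reached the limit on at least 1 XEN array and 2 in ES. The summed signal of this list was 269 to 440 units in XEN and 138 in ES. This sum includes Tek itself, which gave 158 of the 269 units in XEN1-3, so it is not independent of the Tek values. Cdh5, the endothelial cadherin gene, read 255, 196 and 47.9 units on the IM8A1-I, IM8A1-II and XEN1-3 arrays, against 3.50 in ES, without passing (limma adjusted p = 0.0592). Vwf, the von Willebrand factor gene, read at most 15.4 units in XEN, under the limit, with ES above it. Pecam1, also of the list, read 10.9, 34.4 and 50.9 units on the IM8A1-I, IM8A1-II and XEN1-3 arrays, against 48.4 in ES. It did not pass (limma adjusted p = 0.558). Tie1, the remaining gene, was under the limit on all arrays in both of its probe sets. The part of endothelial-type expression in the Tek, Flt1 and Kdr values was not tested.

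Of the 6 tested ligands none passed limma's test, while 1 was higher and 0 were lower when p under 0.05 was taken unadjusted. No share over all tested probe sets is given at that unadjusted threshold, so this count has nothing to be set against. Hgf, the ligand gene for Met, was under the limit on all arrays, at most 4.70 units. Vegfb, a ligand of Flt1, read 344 units in IM8A1-I and IM8A1-II and 472 in XEN1-3, against 268 in ES (log2 difference 0.49, adjusted p = 0.339).

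Downstream of the receptors 2 genes were lower by these probe sets, 1 a docking protein gene and 1 a phospholipase gene. Gab1, a docking protein best known for binding Met, read 193 units in IM8A1-I, 170.0 units in IM8A1-II and 96.4 units in XEN1-3, against 814 in ES. Its log2 difference was -2.39 ± 0.42 (SE, limma adjusted p = 0.0265, or 0.0553 without IM8A1-II and 0.101 where dim values were set to the limit), and its other probe set gave -1.42 without passing (adjusted p = 0.0581). Plcg2, a phospholipase C, read 3.50, 4.30 and 4.80 units in XEN, against 137 in ES, at least 5.01-fold lower (log2 -3.33 ± 0.38, adjusted p = 0.00884). Src, the founding member of the Src kinases that bind these receptors, was the third gene that was higher. It read 121, 94.0 and 122 units on the IM8A1-I, IM8A1-II and XEN1-3 arrays, against 29.0 in ES (log2 1.63 ± 0.30, adjusted p = 0.0286, lost without IM8A1-I at 0.0805, without IM8A1-II at 0.0526 and with dim probe sets kept at 0.0545).

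In 2 genes a probe set that was not the one with the highest mean log2 signal passed. For Inpp5d, which encodes the lipid phosphatase SHIP1, the probe set that passed read 7.9, 7.2 and 4.5 units in XEN, against 100.6 in ES (log2 -2.71, limma adjusted p = 0.0148). Its other probe set read 48.4, 71.1 and 63.4 units in XEN, against 18.5 in ES (1.29, adjusted p = 0.0647), so the probe sets of Inpp5d pointed in opposite directions. For the adaptor gene Crkl, the probe set that passed read 40.3, 33.1 and 26.2 units in XEN, against 3.10 in ES (1.67, adjusted p = 0.0488), while the one with the higher mean log2 signal had a log2 difference of 0.33 (adjusted p = 0.639).

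Of the bright pathway genes that did not pass, Akt1, a kinase of the lipid kinase arm, had a log2 difference of 1.12 (95% interval 0.26 to 1.98, limma adjusted p = 0.0977). The small GTPase gene Nras had -0.67 (adjusted p = 0.245) and the MAP kinase kinase gene Map2k1 -0.81 (0.148). The transcription factor gene Stat3 had 0.61 (0.231), and Dusp6, which encodes a phosphatase of the MAP kinases ERK1 and ERK2, 0.66 (0.416). Dusp1, a phosphatase gene of the same family, read 360, 178 and 54.0 units on the IM8A1-I, IM8A1-II and XEN1-3 arrays, against 843 in ES. Its log2 difference of -2.37, with a 95% interval of -4.60 to -0.14, did not pass (limma adjusted p = 0.148), but it passed without XEN1-3. The other probe set of Nras pointed the other way, at 0.34, also without passing.

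**Figure D4:**
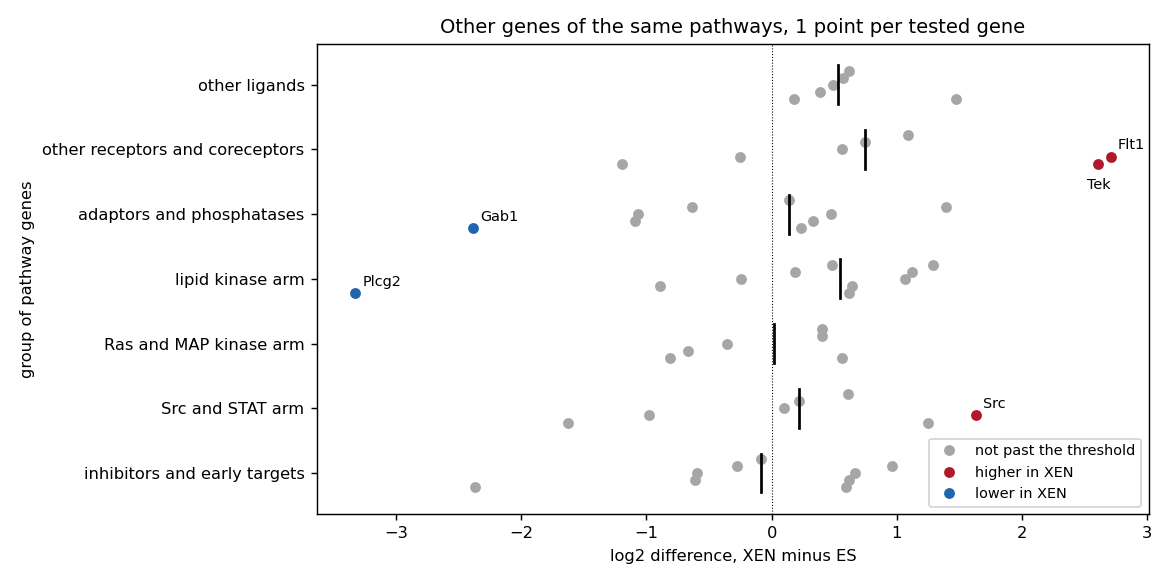
Log2 difference, XEN minus ES, of the 54 tested pathway genes by group, 1 point per gene, with the group median as a vertical bar. Tek, Flt1 and Src (red) were higher and Gab1 and Plcg2 (blue) were lower at an adjusted p under 0.05, and 49 genes (grey) did not pass.

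For the 4 members whose signal reached 84.7 units, the 60th percentile, on at least 1 array, the genes with the most similar pattern over the 4 arrays were sought by the Euclidean distance of mean-centred log2 values. With 4 arrays this is a description. Nearest to Pdgfra were Tinagl1, a matrix glycoprotein gene, at 0.31, the laminin gene Lama1 at 0.33 and the endoderm factor gene Sox17 at 0.33. Of 7712 candidate probe sets 15 lay within a distance of 1 of Pdgfra. The values were not scaled to a common spread, so such counts depend on the size of the difference from ES. The median distance over the candidates was 5.11 for Pdgfra and 1.42 for Pdgfa. The counts therefore do not show how rare a pattern was. Nearest to Kit were Ate1, an arginyltransferase gene, at 0.18, the G protein gamma subunit gene Gng12 at 0.20 and the co-chaperone gene Dnajc3 at 0.22, with 516 of 7713 within 1. Ate1 and Dnajc3 were under the limit in ES, at 2.70 and 13.9 units, where Kit was not, and the log2 scale used understates changes of dim genes.

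Nearest to Kitl were the cathepsin gene Ctse at 0.33, Dap at 0.36 and the glutamine synthetase gene Glul at 0.37, and 62 probe sets lay within 1. Like Kitl they were lowest in XEN1-3 among the XEN arrays: Glul read 1215.5, 1083 and 395 units on the IM8A1-I, IM8A1-II and XEN1-3 arrays, against 193 in ES. Nearest to Pdgfa were Rgs11 at 0.02, Gm2022 at 0.04 and the Nodal pathway factor gene Foxh1 at 0.08, and 1851 probe sets lay within 1. That distance can also take in probe sets with a smaller difference from ES, so the count does not show how common the pattern was. Rgs11 and Foxh1 were under the limit on all XEN arrays, where Pdgfa was not, and the log2 scale used understates changes of dim genes.

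**Figure D5:**
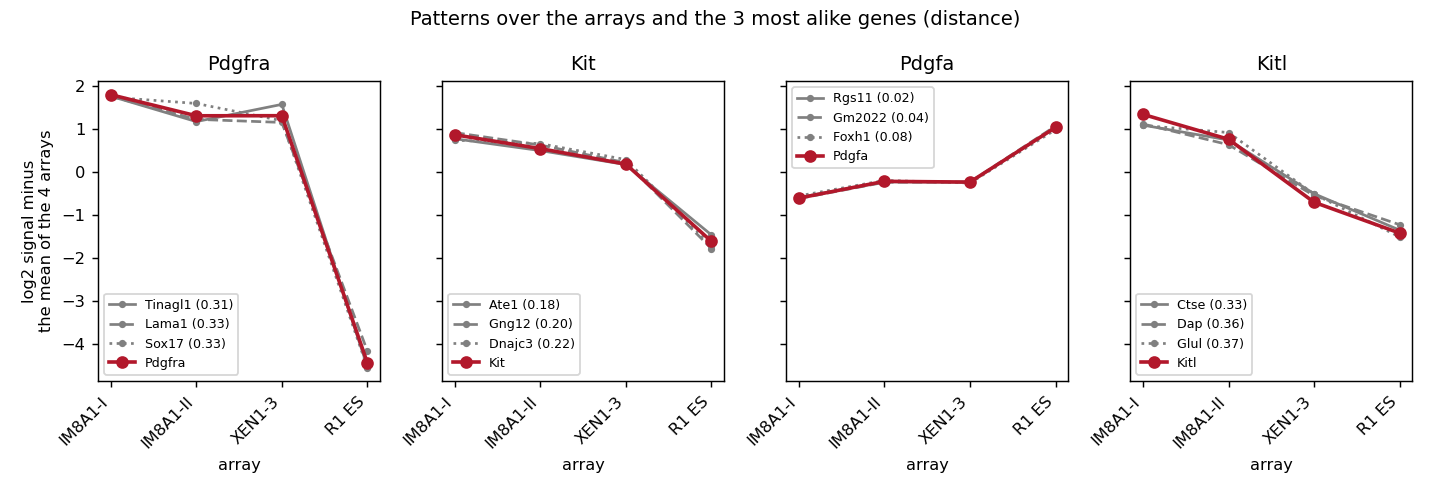
Mean-centred log2 signal over the 3 XEN arrays and the ES array for Pdgfra, Kit, Pdgfa and Kitl (red) and the 3 most alike genes of each (grey, distance in brackets). The Pdgfra panel has the deepest drop in ES, and the Kitl panel shows XEN1-3 nearer to ES than the IM8A1 arrays are.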

How the data were processed

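The deposited values are intensity summaries, 1 per probe set and array; no header or label names the software. The 2% trimmed means (150.09 on each array) show scaling to a common level by the authors before deposit. Chip lot and fluidics messages were read per the file headers. Each array was multiplied to the mean of these (factor 1.00), 10.5 units (25th percentile) were added and log2 was taken, which understates changes of dim genes. The 66 control probe sets stood outside percentiles and tests. Probe sets reaching the limit on 1 array or more were tested with limma 3.58.1 in R 4.3.3 (variance trend, 2 residual and 3.76 prior degrees of freedom, two-sided, Benjamini-Hochberg), a procedure also tested on simulated data. For a group entirely below the limit, "at least" is the brighter group's geometric mean over the limit.

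Platform annotation gave the symbols (10833 probe sets with 1 symbol, 10817 found by gene ID in RefSeq, GRCm38.p6). Members and lists were chosen with earlier results of these data known. The text names all members, pathway genes that passed and the 6 with the highest mean log2 signal that did not, neighbours counted over protein-coding genes, and the 3 nearest patterns. Hgf, Vegfa, Nrp1, Sos2, Jak2, Yes1, Dusp1, Inpp5d, Crkl and the single markers were named after their values were seen. The precision is limited by the number of arrays. Alternatives changed the offset, dim values, filter, variance trend, scaling and arrays used. Sequence of Pdgfrb is not shown. Figures used matplotlib 3.10.9.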

Additional observations from a re-analysis of the deposited data

Results flagged for a closer look

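Among the members, the chromosomal neighbours and the pathway genes named by rule, 2 genes, Pdgfrb and Dusp6, were split by line. Both arrays of the IM8A1 line lay on one side of ES and the array of the XEN1-3 line on the other. This difference between lines was not tested. Of the genes named after their values were seen, Pecam1 was split likewise. So was the Crkl probe set with the higher mean log2 signal, at 283.9, 235.7 and 143.9 units in XEN, against 167.9 in ES. Pdgfrb was 0.73 and 0.17 above ES on the log2 scale in IM8A1-I and IM8A1-II and -0.13 in XEN1-3, with 3 of 4 values under the background limit. Dusp6 was 0.98 and 1.06 above ES in IM8A1-I and IM8A1-II (474 and 502 units) and -0.056 in XEN1-3 (225.5 units), against 235 units in ES.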

How the results depend on the processing

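The count of member probe sets higher in XEN was 2 and stayed at 2 under the alternatives that kept all arrays, and ran from 1 to 3 when 1 XEN array was left out (1 without IM8A1-I, Pdgfra; 1 without IM8A1-II, Pdgfra; 3 without XEN1-3, with Kitl added to Pdgfra and Kit). With dim values set to the limit the 2 were both Pdgfra probe sets, and Kit did not pass. The count lower in XEN, 1 for Pdgfa, was 0 with dim values set to the limit, 0 when dim probe sets were kept and 0 with 1 value for each line, and ran from 0 to 1 when 1 XEN array was left out. Its adjusted p stood at 0.0580 to 0.105 in these cases. In the pathway list the count higher in XEN, 3, was 1 when dim probe sets were kept (Tek) and ran from 1 to 6 when 1 XEN array was left out. The 6, without XEN1-3, added Vegfa, Sos2 and Jak2. The count lower in XEN, 2, ran from 1 to 4, the 4 without XEN1-3, with Yes1 and Dusp1 added. The neighbours kept 0 calls under each alternative run. Within XEN, the count of members at least 2-fold lower in XEN1-3 than in IM8A1-I, 1, was 2 with an offset of the 5th percentile, where Pdgfrb joined Kitl. The causes were not tested. Of the comparisons of single named genes with their alternatives, 209 kept direction and side of the threshold, 19 fell back over it, 2 came past it and 0 changed direction. No paired analysis was possible because there was 1 ES array and the design pairs no ES culture with a XEN culture. Signals near the background limit (Pdgfrb, Kdr, Met and 2 Pdgfra probe sets) limit what can be said of these transcripts.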

Other observations

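Several other genes of the VEGF pathway, picked after their values were seen, were uneven among the XEN arrays. Vegfa, the principal Kdr ligand gene, read 263 units in IM8A1-I, 158 units in IM8A1-II and 112 units in XEN1-3, against 53.5 in ES (log2 difference 1.48, limma adjusted p = 0.105). Nrp1, a VEGF coreceptor gene, read 44.3, 85.5 and 16.9 units on the IM8A1-I, IM8A1-II and XEN1-3 arrays, against 14.1 in ES, and a further probe set read 28.2, 35.9 and 8.40 units in XEN and 3.40 in ES. The order IM8A1-II, IM8A1-I, XEN1-3 from high to low was the same in both Nrp1 probe sets. Flt1 was brightest in IM8A1-II in both of its probe sets, at 269 and 174 units, compared with 99.2 and 64.5 in IM8A1-I. With 1 array for each culture these differences had no test.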
